A study of Mus musculus with 30 samples.

Results

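Native T cells of the blood were compared with native LKS-SLAM cells of the bone marrow, gene by gene, to find which transcripts were gained and which were lost on going from a stem-cell-enriched fraction to mature T cells. The comparison takes 8 of the 30 samples of the series, chosen by their titles: 2 libraries of CD3+ CD4+ cells, 3 of CD3+ CD8+ cells and 3 of LKS-SLAM cells. LKS-SLAM stands for lineage-negative, Kit+, Sca1+ cells sorted further by SLAM family receptors. All 8 libraries were annotated as wild type mice and as freshly taken from the tissue, and all populations were sorted by flow cytometry under a purity mask. The labels name no transgene or treatment for any of them, and age and strain are not given in the sources used here. The CD8 libraries are labelled as lymphocytes and the CD4 libraries as T cells, and LKS-SLAM replicate 3 carries another stem cell label than replicates 1 and 2. Nothing in the labels says that replicates came from separate mice, so p-values measure the spread between libraries, which may be technical.

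A mature T cell recognises peptide on MHC proteins through the T cell receptor, whose signal runs from the CD3 chains through the kinases Lck and Zap70 and the adaptors Lat and Lcp2. Naive T cells recirculate between blood and lymph nodes and are kept alive by interleukin 7. Haematopoietic stem cells divide rarely, answer to stem cell factor, and are kept by transcription factors such as Gata2, Meis1 and Mecom. T cells arise from marrow progenitors in the thymus, under Notch signals and the factors Tcf7, Gata3 and Bcl11b.

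The labels were first set against marker genes, on the FPKM scale (fragments scaled to transcript length and to mapped fragments, the deposited unit). Cd4 stood at 364 and 352 FPKM in the CD4 libraries and at 0.0832 to 0.272 in the CD8 libraries. Cd8a stood at 395, 363 and 373 FPKM in the CD8 libraries and at 2.87 and 1.57 in the CD4 libraries. Kit, which binds stem cell factor, was at 125, 116 and 133 FPKM in the LKS-SLAM libraries and at 0.00949 to 0.271 in the 5 T cell libraries. The CD4 and CD8 labels were thus matched by their defining genes, and the LKS-SLAM label by Kit. Slamf1, a SLAM family gene given further below, was no lower in the CD4 than in the LKS-SLAM libraries. Ly6a, which encodes Sca1, did not set LKS-SLAM cells apart from T cells: it stood at 245 and 208 FPKM in CD4, 62.0, 60.8 and 75.9 in CD8, and 90.8, 65.0 and 108 in LKS-SLAM libraries.

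Markers of other cells showed where single libraries stood apart. All 3 LKS-SLAM libraries carried neutrophil transcripts: the mean log2(FPKM + 1) of an 18-gene list was 6.39, 6.02 and 5.86, against 0.29 to 1.31 in the T cell libraries. Eosinophil transcripts were high in LKS-SLAM replicates 1 and 2 (mean 5.91 and 6.56 over 10 genes) and not in replicate 3 (1.18). LKS-SLAM replicate 3 carried T cell and B cell transcripts instead, with Cd3e at 6.29 FPKM against 0 and 0.284 in replicates 1 and 2, and it was the shallowest library by the estimated relative depth (0.607 of replicate 1, against 0.859 to 1.06 in the other 6). B cell and natural killer cell transcripts were higher in the CD8 than in the CD4 libraries. The B cell list of 18 genes stood at 5.71, 5.26 and 4.57 in CD8 replicates 1, 2 and 3 and at 2.36 and 2.50 in CD4, and the natural killer list of 12 genes at 4.69, 4.81 and 3.12 against 1.45 and 1.75. Summed over the list, B cell markers came to 996 to 2432 FPKM in CD8, 190 and 212 in CD4, 380 to 1225 in LKS-SLAM and 26377 to 33325 in B cell libraries, and no member was at 0 in any CD8 library. Neutrophil markers summed to 7.55 to 46.8 FPKM in T cell libraries, where up to 9 of 18 were at 0, and to 2367 to 4003 in LKS-SLAM libraries. In CD4 replicate 1 a single short gene model, Gm25500, held 24.0% of all FPKM added up, against 0% in CD4 replicate 2. In bulk RNA, fewer cells of a type and less RNA per cell cannot be told apart, and the part of these cells in the results below was not tested.

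**Figure D1:**
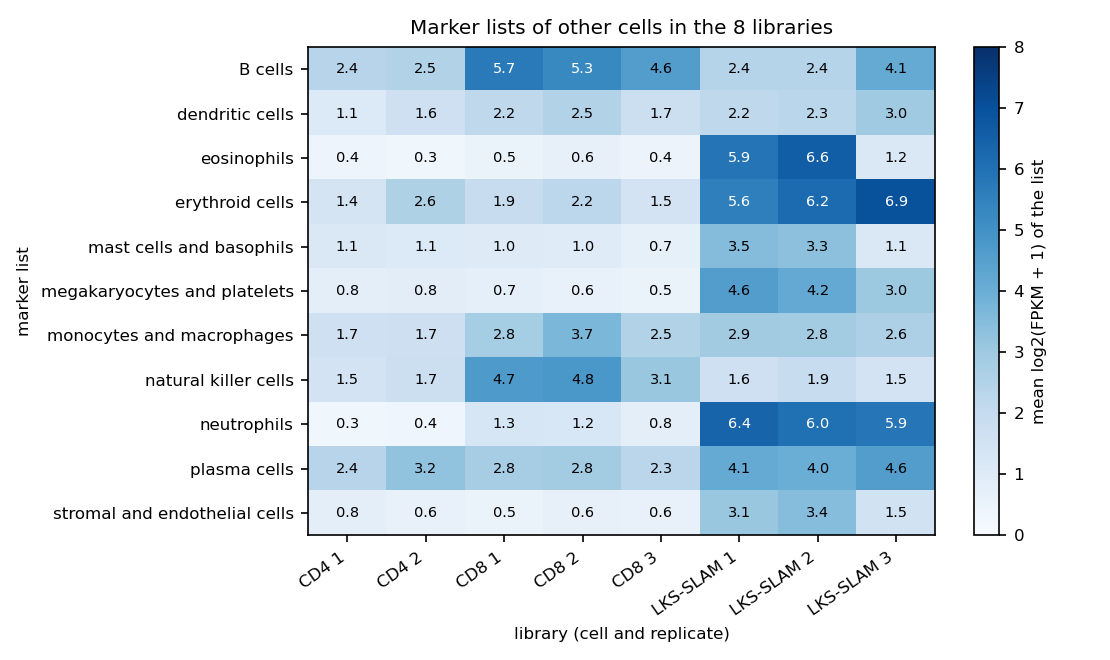
Mean log2(FPKM + 1) of 11 marker lists of other cells (rows) in each of the 8 libraries (columns), with the rounded value printed in each field. Neutrophil markers are at 5.86 or more in every LKS-SLAM library, eosinophil markers in LKS-SLAM replicates 1 and 2, and B cell and natural killer markers are higher in the 3 CD8 libraries than in the 2 CD4 libraries.

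Differences were tested with limma on log2(FPKM + 1) over 13578 genes, and adjusted p-values are by Benjamini-Hochberg over all of them. A gene was called at an adjusted p under 0.05, and counted as gained or lost where it was called in CD4 and in CD8 cells and the step from LKS-SLAM reached 1 log2 unit in the same direction in both. Because 1 is added before the logarithm, these differences understate the change of genes with low values. Both comparisons use the same 3 LKS-SLAM libraries, so a gene shared by them is not found independently in each.

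In all, 1013 genes were gained in both T cell classes (7.46% of genes tested) and 2751 were lost (20.3%). These shares are the background for the counts of gained and lost genes in each gene list below. In CD4 cells 8758 genes were called (64.5%), 3320 higher and 5438 lower than in LKS-SLAM cells. In CD8 cells 8753 were called (64.5%), 3120 higher and 5633 lower. A difference of 5 or more in both classes was reached by 33 gained and 93 lost genes, 14 gained genes were listed at 0 in every LKS-SLAM library, and 148 lost genes were listed at 0 in every T cell library. The median difference over all genes was −0.21 in each class. The balance of gains and losses depends on scaling: after quantile normalisation, which moved the median of the T cell mean from −0.21 to 0.08, there were 1866 gained and 1914 lost genes, and 53.7% of genes called alike in both classes were higher in T cells, in place of 34.5%. Of the 1013 and 2751 genes, 1012 and 1912 were among them.

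The counts were also taken without the libraries that stood apart. Without LKS-SLAM replicate 3 there were 1028 gained and 2926 lost genes, and without CD8 replicates 1 and 2, a choice made after seeing the data, 1005 and 2697. With LKS-SLAM replicate 3 as the only stem cell library, assumed to vary like the other groups, there were 1207 gained and 1649 lost genes. Here 1833 of the 2751 lost genes could be tested, since the filter asks for 2 libraries at 1 FPKM, and 1487 of them were lost.

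**Figure D2:**
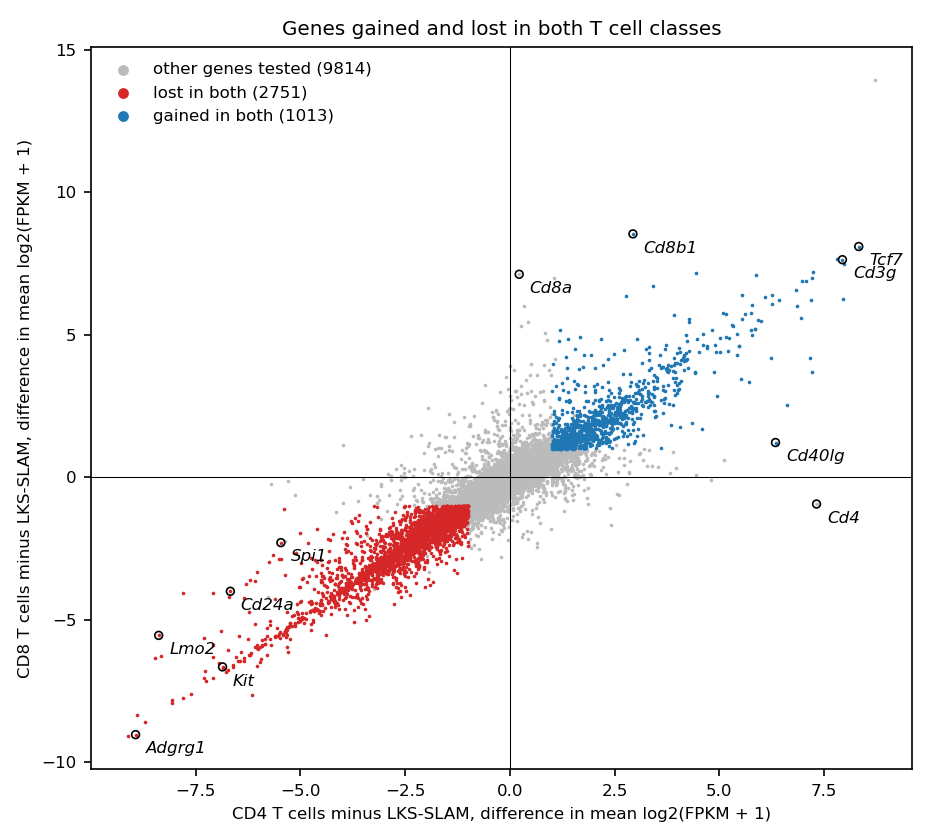
Difference from LKS-SLAM in mean log2(FPKM + 1) for CD4 T cells (x axis) and CD8 T cells (y axis), 1 point per gene tested, with the 1013 genes gained in both in blue and the 2751 lost in both in red. Both axes contain the same LKS-SLAM libraries. Cd4 and Cd8a lie off the diagonal and are in neither set.

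Fewer genes reached 1 FPKM in the T cell libraries. A mean of 10954 ± 94.9 genes (SD, n = 5) reached 1 FPKM in T cells and 12401 ± 204 (n = 3) in LKS-SLAM cells, a difference of −1447 (exact two-sided permutation p = 0.0357, the smallest that 3 against 5 libraries allow). The T cell libraries lay between 10807 and 11050 and the LKS-SLAM libraries between 12168 and 12550, without overlap. However, the LKS-SLAM library with the fewest genes was also the shallowest. Markers of other cells were found in all LKS-SLAM libraries, and their part in these counts was not tested.

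By the smaller of its differences in both classes, the largest gain was in Tcf7, which encodes the T cell factor TCF1 (chromosome 11, 52252371 to 52283014, GENCODE annotation of mm10). Tcf7 stood at 784 and 906 FPKM in CD4, at 610, 735 and 836 in CD8, and at 1.11, 0.916 and 3.50 in LKS-SLAM libraries. Every T cell library was far above every LKS-SLAM library, and replicate 3 was the highest of the latter. The difference was 8.33 ± 0.30 (SE) in CD4 and 8.10 ± 0.27 in CD8 cells (limma adjusted p = 6.74e-10 and 2.43e-10). Its relative Lef1, which binds the same DNA letters, stood at 144 and 177 FPKM in CD4, 106, 136 and 159 in CD8, and 0.0196, 0.0185 and 1.67 in LKS-SLAM libraries, a rise of 6.84 and 6.56.

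The 3 CD3 chain genes lie together on chromosome 9, Cd3g at 44969572 to 44980431, Cd3d at 44981786 to 44987339 and Cd3e at 44998740 to 45009627, and rose together. Cd3d stood at 322 and 293 FPKM in CD4, 286, 306 and 322 in CD8, and 0.698, 0.932 and 1.61 in LKS-SLAM libraries (differences 7.23 ± 0.20 and 7.22 ± 0.18, limma adjusted p = 8.00e-11 and 2.45e-11). Cd3g rose by 7.94 and 7.64 and Cd3e by 7.07 and 6.88. Cd247, the zeta chain on another chromosome, was at 5.37, 5.29 and 11.4 FPKM in LKS-SLAM libraries and rose by 5.46 and 4.60, to 360 and 335 in CD4 and 172, 186 and 217 in CD8 libraries.

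Promoter letters are shown for 3 gained genes and 1 lost gene whose windows hold letters read by the factors named here. RefSeq windows on GRCm38.p6 were matched by symbol for 753 of the 1013 gained, 2047 of the 2751 lost and 10308 of the 13578 tested genes, and the 250 bases before each start were searched on both strands. The letters CTTTGAA, with T also allowed as the last base, are read by Tcf7 and Lef1. They were in a window of 6.64% of gained, 6.55% of lost and 6.53% of all these genes. A gene with more than 1 window was counted once, if any of them matched. The letters TGTGGT, read by Runx factors, were in 18.1%, 12.9% and 13.4%. For ETS factors CCGGAAGT was found in 4.52%, 2.74% and 6.42%. The shares for the GATA factor letters AGATAA were 8.90%, 8.11% and 7.63%, and those for CAGCTG, which E proteins read, were 16.1%, 16.1% and 14.1%. The AP-1 letters TGACTCA were in 3.72%, 5.13% and 4.05%. A match is a string of letters and not a shown binding site. In the sequences below, written 5′ to 3′ on the gene's strand, capitals mark these matches, none of which overlap.
Cd3d, chr9:44981536-44981785, plus strand, TCF/LEF letters on the opposite strand: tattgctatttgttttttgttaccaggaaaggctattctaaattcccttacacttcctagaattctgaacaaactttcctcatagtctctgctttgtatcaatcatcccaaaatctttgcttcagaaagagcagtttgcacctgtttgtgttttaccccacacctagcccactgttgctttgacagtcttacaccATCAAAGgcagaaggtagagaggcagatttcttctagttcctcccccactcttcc
Bcl11b, chr12:108003415-108003664, minus strand, TCF/LEF letters: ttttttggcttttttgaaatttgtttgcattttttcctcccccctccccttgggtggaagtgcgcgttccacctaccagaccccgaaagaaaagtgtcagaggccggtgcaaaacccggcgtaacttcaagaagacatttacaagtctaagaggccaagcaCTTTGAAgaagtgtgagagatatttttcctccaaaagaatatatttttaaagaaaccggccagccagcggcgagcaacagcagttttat
Lck, upstream of 1 of its 2 listed starts, chr4:129573642-129573891, minus strand, RUNX letters: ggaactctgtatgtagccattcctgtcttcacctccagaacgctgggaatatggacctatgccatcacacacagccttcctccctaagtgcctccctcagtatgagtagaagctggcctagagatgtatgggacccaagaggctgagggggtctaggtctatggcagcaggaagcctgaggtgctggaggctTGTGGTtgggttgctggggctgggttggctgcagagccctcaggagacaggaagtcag
Meis1, chr11:19018970-19019219, minus strand, RUNX letters and ETS letters on the opposite strand: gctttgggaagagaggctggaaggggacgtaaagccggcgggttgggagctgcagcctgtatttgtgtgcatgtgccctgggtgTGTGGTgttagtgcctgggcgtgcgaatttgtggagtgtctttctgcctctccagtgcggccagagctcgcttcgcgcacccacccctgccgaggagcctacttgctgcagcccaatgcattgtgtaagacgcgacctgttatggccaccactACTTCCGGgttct

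Of 38 genes of the CD3 complex and T cell receptor signalling, 32 were gained and 0 lost, with a median difference of 4.76 in CD4 and 4.34 in CD8 cells, against −0.21 over all genes tested. Lck, the kinase that phosphorylates CD3, rose by 5.30 and 5.36, from 6.03, 5.21 and 22.6 FPKM in LKS-SLAM libraries. Zap70, the kinase recruited to phosphorylated CD3, rose by 6.27 ± 0.42 and 6.08 ± 0.38, and the surface receptors Cd5 and Cd6, which tune the strength of the signal, by 7.94 and 6.27 and by 7.18 and 6.22. Lat, the membrane adaptor, was already at 63.9, 63.8 and 62.3 FPKM in LKS-SLAM libraries and rose by 3.27 and 2.68, to 640 and 602 in CD4 and 399, 386 and 452 in CD8 libraries. The 6 members in neither set included the coreceptor genes Cd4 and Cd8a, each high in 1 class, and the exchange factor Vav1, which stood at 44.6 to 47 FPKM in LKS-SLAM and 52.5 to 61.3 in T cell libraries (0.23 and 0.34). Lcp2 (1.31 and 0.86), Nfatc2 (0.85 and 0.73) and Ptprcap (0.79 and 0.66) were called in both classes with a difference under 1 in at least 1 of them. Without LKS-SLAM replicate 3, in which T cell transcripts were found, 33 of the 38 were gained.

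**Figure D3:**
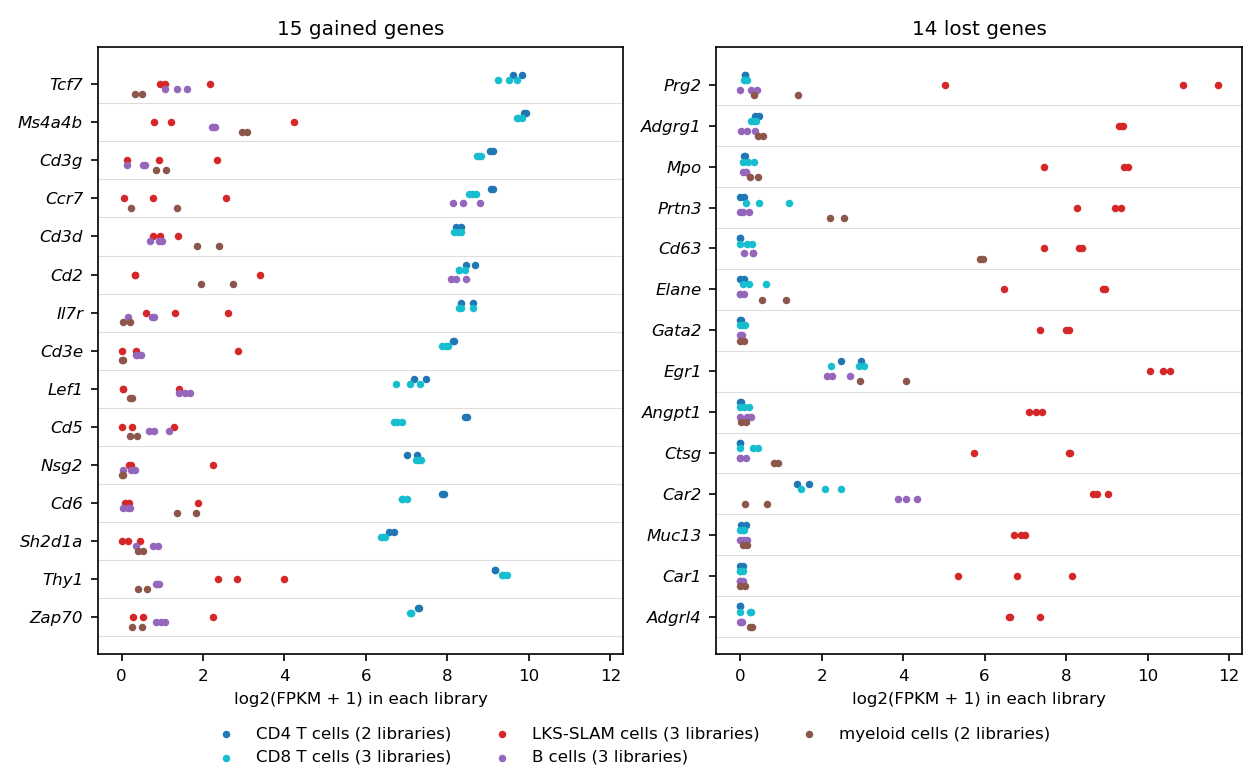
log2(FPKM + 1) in each of 13 native libraries for the 15 gained genes (left) and 14 of the 15 lost genes (right) that the naming rule selects, 1 point per library, coloured by cell type. In both panels the 5 T cell libraries lie apart from the 3 LKS-SLAM libraries; Ccr7 and Cd2 are as high in B cells as in T cells, and Cd63 is detected in myeloid cells.

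Other named gains were Ms4a4b, a membrane protein of T cells (7.82 and 7.67), Cd2, an adhesion receptor (7.21 and 6.99), Sh2d1a, the adaptor SAP of SLAM receptors (6.42 and 6.21), Nsg2 (6.25 and 6.41) and Thy1, a surface glycoprotein used as a mouse T cell marker. Thy1 was not absent from stem-enriched cells: it stood at 6.19, 4.14 and 15 FPKM in LKS-SLAM libraries, 573 and 575 in CD4 and 703, 663 and 651 in CD8. The 15 gained and 15 lost genes had the largest smaller difference among genes without overlap between T cell and LKS-SLAM libraries.

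Among 25 transcription factors of the T lineage, 14 were gained and 1 was lost (median 1.97 in CD4 and 1.30 in CD8). Bcl11b, a zinc finger factor of T cell commitment, stood at 67.9 and 75.2 FPKM in CD4, 42.4, 46.9 and 54.9 in CD8, and 0.143, 0.0543 and 1.04 in LKS-SLAM libraries (5.75 ± 0.24 and 5.18 ± 0.22, limma adjusted p = 2.22e-09 and 1.45e-09). Ets1 rose by 5.23 and 4.88 to 437 and 342 FPKM from 10.8 ± 2.47, Themis by 4.60 and 5.04, and Foxo1, a regulator of homing and survival genes, by 2.25 and 1.89. Gata3 was higher by 1.97 and 1.15, from 11.4, 10.5 and 6.32 FPKM, and the CD8 difference was under 1 with array quality weights (0.95) and without LKS-SLAM replicate 3 (0.91). Gata3 was called in neither class in a model of all 29 grouped libraries (limma adjusted p = 0.0743 and 0.247). Foxp3, the factor of regulatory T cells, was called in CD4 cells (4.80, with 36.6 and 41.9 FPKM) and not in CD8 cells (−0.10, with 0.235 to 0.477 FPKM). Tcf12 (−0.37 and 0.12) and Klf2 (0.48 and 0.30) were called in neither class.

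Of 20 genes of naive T cell homing and survival, 15 were gained and 0 lost (medians 3.10 and 2.67). Il7r, the interleukin 7 receptor alpha chain (chromosome 15, 9505788 to 9530176), stood at 324 and 396 FPKM in CD4, 322, 311 and 392 in CD8, and 0.505, 1.5 and 5.13 in LKS-SLAM libraries. The values of both classes overlapped each other and rose by 6.98 ± 0.43 and 6.90 ± 0.38 (limma adjusted p = 4.19e-08 and 1.44e-08). Ccr7, which guides cells into lymph nodes, rose by 7.96 and 7.48, and S1pr1, the receptor for exit from lymph nodes, by 3.25 and 2.66. Dapl1 was listed at 0 in all 3 LKS-SLAM libraries and stood at 41.3 and 81.1 FPKM in CD4 and 73.7, 183 and 183 in CD8 libraries. Cd44, an adhesion receptor that marks activated cells when high, differed by 0.07 and −0.04 and was called in neither class.

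Of 28 cytokine and costimulatory receptors, 20 were gained and 0 lost (medians 2.41 and 2.02). Cd28, the main costimulatory receptor, stood at 119 and 121 FPKM in CD4, 55.3, 50.4 and 57.4 in CD8, and 2.40, 0.877 and 2.60 in LKS-SLAM libraries, a rise of 5.41 and 4.28. Il2rb, a chain of the interleukin 2 and 15 receptors, rose by 4.27 and 5.57, and Icos by 5.51 and 3.45. Ctla4, Il2ra and Tnfrsf4, known from regulatory and activated CD4 cells, rose in CD4 cells by 3.97, 3.27 and 3.07 and differed by 0.32, 0.41 and 0.81 in CD8 cells, of which the last was called.

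Of 20 cytotoxic and effector genes, 13 were gained and 1 was lost (medians 1.76 in CD4 and 3.68 in CD8). Ccl5, a chemokine of effector cells, stood at 575 and 268 FPKM in CD4, 3682, 2189 and 2160 in CD8, and 4.18, 9.33 and 108 in LKS-SLAM libraries. Prf1 (perforin) rose by 3.04 and 4.87, and Cxcr3 by 4.82 and 5.15. The chemokine Ccl4 went the other way, from 98.8, 89.7 and 155 FPKM in LKS-SLAM to 1.88 and 0.742 in CD4 and 24.3, 17.9 and 8.88 in CD8 libraries (−5.65 and −2.74). In the model of 29 libraries 7 of the 20 were gained. Natural killer cells also express many of these genes, and the natural killer list stood higher in the CD8 libraries, as given above, with Ncr1, a receptor that defines natural killer cells, at 20.8, 24.8 and 1.5 FPKM in CD8 and 0 and 0.340 in CD4 libraries.

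Of 8 GIMAP GTPases, proteins of lymphocyte survival encoded in 1 cluster on chromosome 6, 6 were gained and 0 lost. Gimap3 stood at 844 and 800 FPKM in CD4, 606, 520 and 592 in CD8, and 8.44, 9 and 21.4 in LKS-SLAM libraries (6 and 5.48). Gimap5 was called in neither class, at 44.7 ± 6.2 FPKM in LKS-SLAM cells, and close copies in this family may share reads. Among 15 genes of class I antigen presentation, 5 were gained and 0 lost, and 13 were called higher in both classes (medians 1.05 and 0.83), as were 18.6% of all genes tested. Nlrc5, the activator of class I genes, rose by 1.79 and 1.65, and Tapbp by 1.28 and 1.30. H2-D1 was gained by 1.24 and 1.01, and the second value was under 1 in 7 of the other settings, among them quantile normalisation (0.71), rescaling without Gm25500 (0.93) and leaving out CD8 replicate 1 (0.97). Close copies among the H2 genes may share reads.

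Of 18 receptors for chemokines and sphingosine phosphate, 10 were gained and 1 was lost, with S1pr4, Cxcr5 and Cxcr6 among the gains (2.69 and 2.26, 3.32 and 4.36, and 3.31 and 4.13). Ccr1 was lost, by 1.73 and 1.58, and was not counted as lost after quantile normalisation (−0.83 and −0.73). Cxcr4, the receptor for the marrow chemokine Cxcl12, stood at 91.9 ± 21.3 FPKM in LKS-SLAM, 115 in CD4 and 147 in CD8 cells, and was called in CD8 cells alone (0.65). Of 17 integrins, 5 were gained and 2 lost, against 7.46% and 20.3% of all genes tested. Itgal and Itgb2, the subunits of LFA-1, rose by 3.52 and 3.49 and by 2.53 and 2.60, Itgae by 4.21 and 4.13, and the platelet integrin Itga2b and the fibronectin receptor subunit Itga5 fell by 4.71 and 5.07 and by 3.26 and 3.02.

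A loss of similar size in both classes was that of Adgrg1, which encodes the adhesion receptor GPR56 of stem cells (chromosome 8, 94974751 to 95014217). Adgrg1 stood at 667, 628 and 662 FPKM in the LKS-SLAM libraries, at 0.295 and 0.380 in CD4 and at 0.302, 0.190 and 0.266 in CD8. The 3 LKS-SLAM values lay close together, and the T cell values were all under 1 FPKM. The difference was −8.93 ± 0.14 in CD4 and −9.03 ± 0.12 in CD8 cells (limma adjusted p = 3.06e-12 and 7.28e-13).

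Granule genes made up 5 of the 15 named losses: the eosinophil major basic protein Prg2 and the neutrophil enzymes Mpo, Prtn3, Elane and Ctsg. Prg2 stood at 1863, 3398 and 31.5 FPKM in LKS-SLAM replicates 1, 2 and 3 and at 0.0630 to 0.124 in T cells. Mpo stood at 733, 687 and 176 and Elane at 497, 476 and 87.9, and replicate 3 was again the lowest. Of the 18 neutrophil genes 17 were lost, and of 10 eosinophil genes 7, which in the fit with LKS-SLAM replicate 3 alone became 14 of 16 and 3 of 7 tested. The cells these transcripts came from were not tested.

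All other losses named here stood in each LKS-SLAM library at 39.9 FPKM or more. Gata2, a transcription factor of stem cells (chromosome 6, 88193891 to 88207032), stood at 253, 267 and 163 FPKM in LKS-SLAM and at 0 to 0.0775 in T cell libraries (−7.79 ± 0.19 and −7.76 ± 0.17, limma adjusted p = 4.16e-11 and 1.19e-11). Angpt1, a secreted ligand of the Tek receptor, stood at 167, 152 and 135 FPKM against 0 to 0.155. Egr1, an immediate early factor, fell by 7.61 and 7.60, and remained at 3.71 to 7.25 FPKM in T cells. The others were the tetraspanin Cd63 (−8.06 and −7.91), the carbonic anhydrases Car2 (−7.28 and −6.80) and Car1 (−6.74 and −6.75), the mucin Muc13 (−6.78 and −6.81) and the adhesion receptor Adgrl4 (−6.86 and −6.69).

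Of 32 stem and progenitor transcription factors, 29 were lost and 0 gained (medians −4.60 in CD4 and −3.29 in CD8). Meis1 stood at 90.9, 76.9 and 72.5 FPKM in LKS-SLAM, 0.150 and 0.225 in CD4 and 0.230, 0.177 and 0.475 in CD8 libraries. Erg fell by 6.36 and 6.45, Tal1 by 5.37 and 5.38 and Mecom by 4.96 and 4.97, and each was under 1 FPKM in all T cell libraries. Hlf fell by 4.4 and 5.52 and kept a trace in CD4 cells, 2.26 and 1.09 FPKM against 0.0948 to 0.259 in CD8 (CD4 minus CD8 1.12 ± 0.19, limma adjusted p = 0.00189). The 3 in neither set were Fli1, at 34.4 ± 7.13 FPKM in LKS-SLAM, 38.6 in CD4 and 33.8 in CD8 cells and called in neither class, Gfi1 (−0.52 and −0.87), and Runx1 (−0.47 and −1.52). In the fit with LKS-SLAM replicate 3 alone 19 of 22 that could be tested were lost.

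Of 32 stem and progenitor receptors and surface proteins, 21 were lost and 2 gained (medians −3.32 and −3.18). Kit fell by 6.86 and 6.65. Procr, the endothelial protein C receptor used to purify stem cells, stood at 72.4, 76.5 and 77.8 FPKM in LKS-SLAM libraries and at 0 to 0.0363 in T cells (−6.23 ± 0.13 and −6.24 ± 0.11, limma adjusted p = 1.63e-11 and 3.93e-12). Cd34 was highest in LKS-SLAM replicate 3, at 71.1, 61.8 and 222 FPKM, and fell by 6.60 and 6.59. The 2 gained members were Cd48, a SLAM family protein against which LKS-SLAM cells are usually sorted (19, 16.5 and 48.5 FPKM in LKS-SLAM, 165 to 203 in T cells, 2.84 in both classes), and Cd82, a tetraspanin (1.62 and 1.38). Slamf1 stood at 16.1, 15.6 and 9.34 FPKM in LKS-SLAM, 19.9 and 16.2 in CD4 and 3.90, 2.69 and 2.26 in CD8 libraries, so it was lower in CD8 cells (−1.88) and not called in CD4 cells (0.41). With LKS-SLAM replicate 3 alone, 8 of 20 tested were lost.

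Of 24 enzymes, adaptors and secreted factors of stem cells, 21 were lost and 0 gained (medians −4.28 and −4.19). Aldh1a1, a retinaldehyde dehydrogenase, stood at 138, 119 and 71.8 FPKM in LKS-SLAM and at 0 to 0.181 in the T cell libraries. Ifitm1 fell from 566, 570 and 469 FPKM to 8.49 and 4.93 in CD4 and 1.51, 2.50 and 1.25 in CD8 libraries, and Tgm2 and Pdzk1ip1 fell by 6.45 and 5.57 and by 6.02 and 6.63. Txnip, a brake on glucose uptake, was in neither set (0.27 and 0.60). Of 15 Hox genes tested, 14 were lost and 15 called lower in both classes (median −2.91 in each), as were 35.3% of all genes tested. Hoxa9 stood at 42.1, 43.0 and 41.9 FPKM in LKS-SLAM and at 0 to 0.0992 in T cell libraries. Of all 17 listed, 15 reached 1 FPKM in each LKS-SLAM library and 1 or 2 in each T cell library. The filter thus passed Hox genes mostly through the cells where they are high, and the counts only describe them. Without the filter 14 of 17 were lost. Hoxa4, from 1.57 ± 0.371 FPKM, fell by 0.93 and 1.18. Of 9 imprinted growth genes tested, 7 were lost, where 20.3% of all genes tested were, among them Ndn, Grb10 and Cdkn1c. Igf2r, a receptor that clears Igf2, rose by 1.63 and 2. Here too the filter mattered: of 16 listed, 7 to 10 reached 1 FPKM in LKS-SLAM libraries and 2 or 3 in T cell libraries. Without the filter 7 of 16 were lost, and the median difference of the T cell mean was −0.62 in place of −2.75. With LKS-SLAM replicate 3 alone 3 of 3 Hox genes that could be tested were lost, and 0 of 3 imprinted genes.

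**Figure D4:**
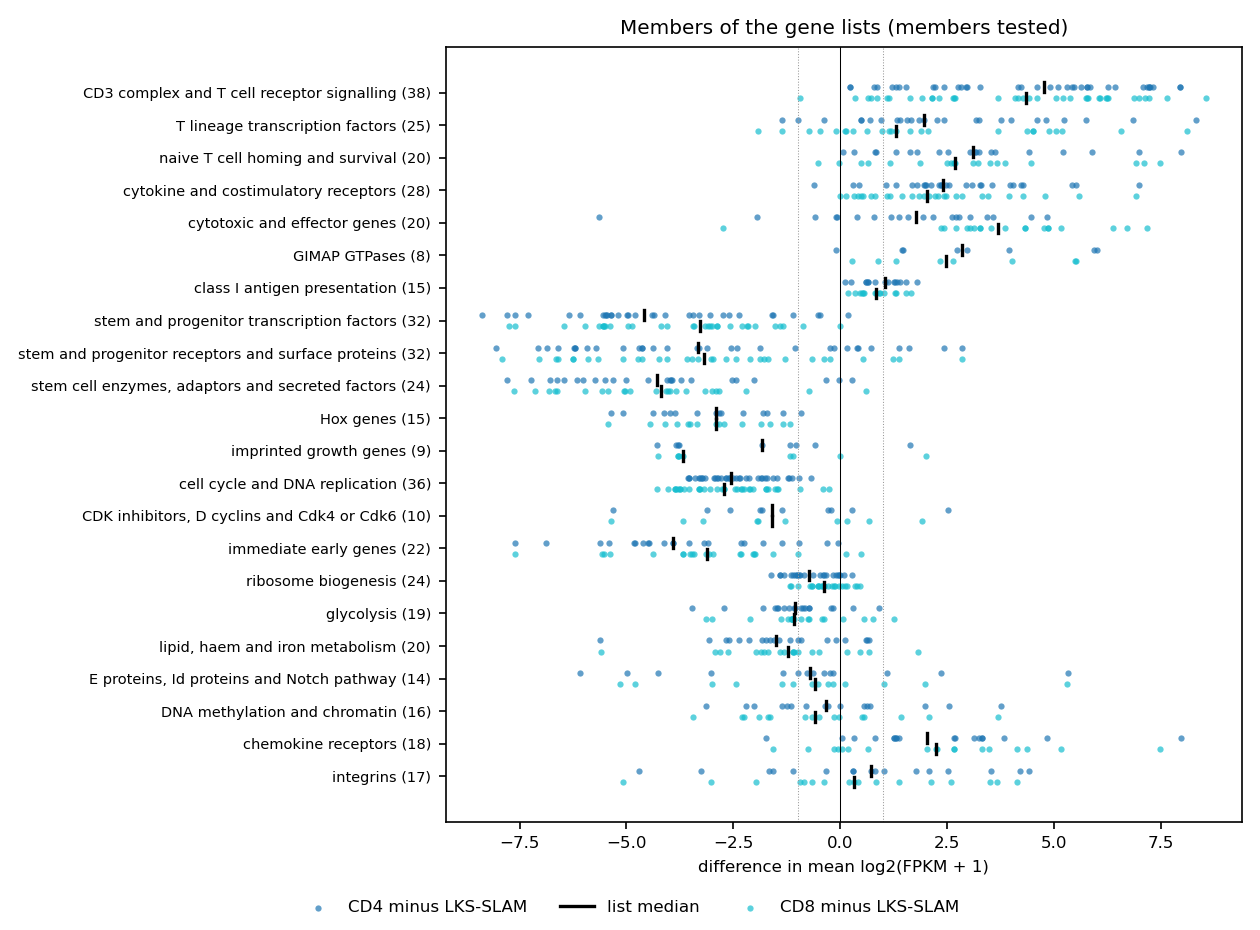
Difference from LKS-SLAM in mean log2(FPKM + 1) for each tested member of 22 gene lists, CD4 (dark blue) above CD8 (light blue) in each row, with the median as a black bar and dotted lines at −1 and 1. The 7 lists at the top, of T cell genes and of class I antigen presentation, have medians of 0.83 or more. The lists of stem cell genes, the cell cycle and immediate early genes have medians under −1.8.

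Cell cycle transcripts were low in T cells. Of 36 genes of the cell cycle and DNA replication, 33 were lost and 0 gained (medians −2.56 and −2.72). Mki67, a marker of cycling cells, stood at 40.3, 43.7 and 32.1 FPKM in LKS-SLAM, 6.63 and 5.25 in CD4 and 1.97, 1.40 and 1.83 in CD8 libraries, and was higher in CD4 than in CD8 cells (1.34, limma adjusted p = 0.000558). The mitotic cyclin Ccnb2 fell by 3.56 and 4.30 and the kinase Cdk1 by 3.53 and 3.76. Cdkn1b, the inhibitor p27, rose by 2.51 ± 0.14 and 1.91 ± 0.13, from 29.9, 29.4 and 38.0 FPKM to 199 and 179 in CD4 and 132, 119 and 120 in CD8 libraries. The other inhibitors did not move with it: Cdkn1a, which encodes p21, fell by 5.32 and 5.36 and Cdkn1c by 1.82 and 3.67. The CD4 call of Cdkn1c ended in the model of 29 libraries and with LKS-SLAM replicate 3 alone (limma adjusted p = 0.0564 and 0.0565). Of the list of inhibitors, D cyclins and their kinases, 1 of 10 was gained and 6 were lost, against 7.46% and 20.3% of all genes tested. Ccnd1, Cdk4 and Cdk6 were among the 6.

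Of 22 immediate early genes, which respond within minutes to stimulation or handling of cells, 19 were lost and 0 gained (medians −3.92 and −3.11). Nr4a1 stood at 1341, 1076 and 1351 FPKM in LKS-SLAM, 33.9 and 17.8 in CD4 and 37.5, 38.0 and 11.2 in CD8 libraries. Ier3, Fosb and Nr4a2 fell by 6.89 and 5.38, 4.79 and 4.38, and 5.41 and 5.53. Marrow and blood differ in how cells are taken, so tissue and cell type cannot be told apart in these values. Of 24 genes of ribosome biogenesis 1 was lost, Nop58, where 20.3% of all genes tested were lost. In that list 12 were called lower in both classes, as were 35.3% of all genes (medians −0.74 and −0.38, against −0.21 in each class over all genes). Of 19 glycolysis genes, 8 were lost, with the hexokinase Hk2 (−3.47 and −3.13) and Tpi1 (−2.71 and −2.11) at the front, while the phosphofructokinase Pfkp rose by 0.90 and 1.25 and Eno1 by 0.31 and 0.55. Of 20 genes of lipid, haem and iron metabolism, 12 were lost, among them the desaturase Fads2, at 56, 55.3 and 35.6 FPKM in LKS-SLAM libraries and listed at 0 in 4 of the 5 T cell libraries.

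Among 14 E protein, Id protein and Notch pathway genes, 3 were gained and 5 lost, against 7.46% and 20.3% of all genes tested. Dtx1, a Notch target, stood at 47.3 and 47.2 FPKM in CD4, 39.6, 52.4 and 48.4 in CD8, and 0.0234, 0.0111 and 0.697 in LKS-SLAM libraries (5.32 and 5.30), while Hes1, another Notch target, fell by 6.09 and 5.15. Id2 rose by 2.35 and 1.99 and Id1 fell by 4.27 and 4.80. In the model of 29 libraries 1 of the 14 was gained, and Id2 was called in neither class (limma adjusted p = 0.0694 and 0.0863). Of 16 genes of DNA methylation and chromatin, Satb1, a chromatin organiser of lymphocytes, rose by 3.77 and 3.69, the Polycomb subunit Cbx7 by 2.54 and 2.08 and Tet3 by 1.97 and 1.42, and 6 fell, with Uhrf1, which brings Dnmt1 to replicated DNA, by 3.14 and 3.45.

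The data were also read as 15 pairs of related genes, 1 taken as stem cell partner and 1 as T cell partner. Not every gene is particular to its side. Ikzf2, the stem cell partner of Ikzf3, is also in the list of T lineage factors, and Cdk4, a T cell partner, was itself lost. In every pair the log2 ratio of the T cell partner to the stem cell partner was higher in all 5 T cell libraries than in all 3 LKS-SLAM libraries. The pairs were chosen with values of these data known, so this is a description. In 4 pairs the stem cell partner was lost and the T cell partner gained: Gata2 and Gata3, Plcg2 and Plcg1, Bcl11a and Bcl11b, and Gab2 and Grap2. In the model of 29 libraries Gata3 was called in neither class, as given above, and Plcg1 not in CD8 cells (limma adjusted p = 0.0656). The ratio of Gata3 to Gata2 lay between −4.54 and −4.36 in LKS-SLAM and between 4.25 and 5.36 in T cell libraries, and that of Bcl11b to Bcl11a between −5.85 and −5.26 and between 2.24 and 5.51.

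In each of the other pairs, the stem cell partner was not counted as lost or the T cell partner was not counted as gained. Zap70 was gained while Syk, the related kinase of B and myeloid cells, stood at 34.6, 32.3 and 43.2 FPKM in LKS-SLAM, 1.97 and 2.07 in CD4 and 29.1, 22.8 and 11.6 in CD8 libraries (−3.63 and −0.84). Bcl2, a survival protein, rose by 1.31 and 1.87, and its relative Bcl2l1 fell by 0.75 and 0.56. Runx1 and Runx3 were neither gained nor lost, with Runx3 higher in CD8 cells (1.19) and not called in CD4 cells (0.47). Cdk4 and Cdk6 were both lost, by 1.88 and 1.29 and by 2.59 and 1.92. The ratio of Cd247 to Fcer1g, signal chains of the T cell and Fc receptors, ranged from 0.81 to 8.50 over T cells, the widest of the 15, with Fcer1g at 50.6, 106 and 26.4 FPKM in CD8 libraries and 0 and 1.17 in CD4. The B and myeloid partners Syk, Lyn, Plcg2 and Bcl11a were each higher in the CD8 than in the CD4 libraries. B cell and natural killer transcripts were higher there too, and the part of such cells in these values was not tested.

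**Figure D5:**
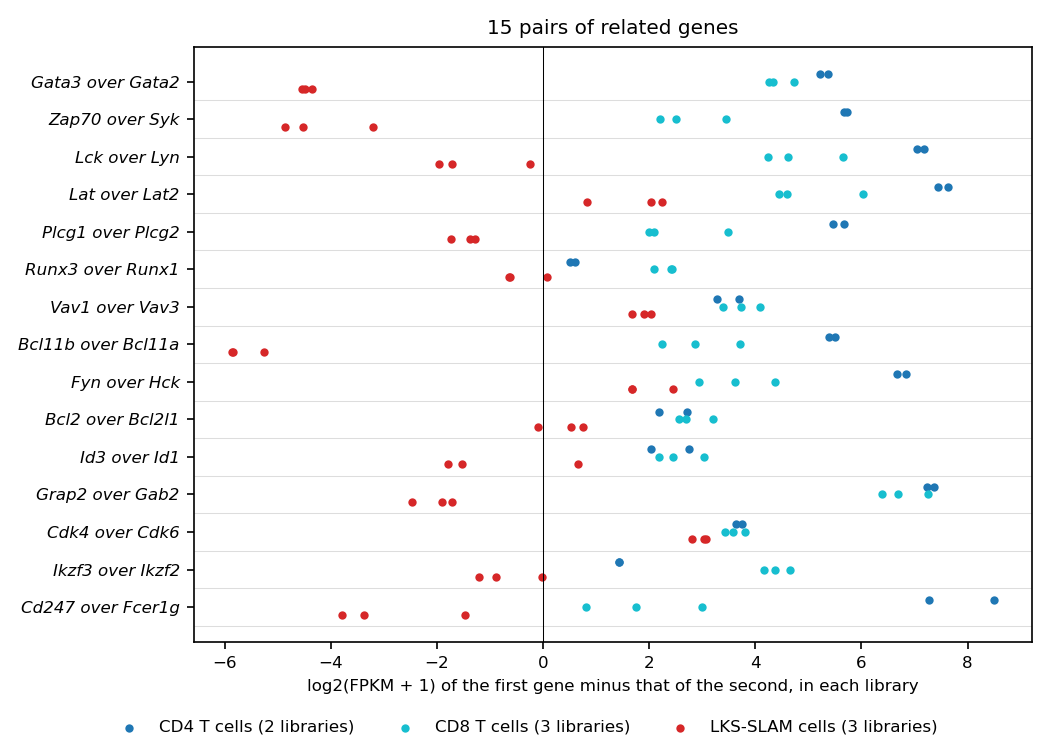
For each of 15 pairs, log2(FPKM + 1) of the T cell partner minus that of the stem cell partner, 1 point per library in CD4, CD8 and LKS-SLAM cells. The T cell points lie to the right of the LKS-SLAM points in every pair, by little for Cdk4 over Cdk6 and widely for Gata3 over Gata2.

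Of the 3764 gained or lost genes, 535 (14.2%) differed in size between CD4 and CD8 cells, against 1861 (13.7%) of all genes tested. The gained and lost genes lay on opposite sides of that share, but these sets do not compare alike. They were picked from the same CD4 and CD8 libraries, as genes higher or lower there than in LKS-SLAM cells. Adding 1 before the logarithm understates differences between low values, and 148 lost genes were listed at 0 in every T cell library. Of the 1013 gained genes 242 (23.9%) differed, 156 higher in CD4 and 86 in CD8 cells, and of the 2751 lost genes 293 (10.7%), 113 higher in CD4 and 180 in CD8 cells. The count of 535 depended on the libraries used: it was 236 without CD4 replicate 1, 822 without LKS-SLAM replicate 3, 88 in the model of 29 libraries and 175 without CD8 replicates 1 and 2.

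Cd40lg, the helper signal to B cells, was listed at 0 in all 3 LKS-SLAM libraries and stood at 84.1 and 76.0 FPKM in CD4 and 1.57, 1.41 and 1.05 in CD8 libraries, a difference between classes of 5.12 ± 0.14 (limma adjusted p = 2.44e-09). Izumo1r, the folate receptor 4, was higher in CD4 cells by 4.07, Trat1, a T cell receptor adaptor, by 3.52, Ly6c1 by 2.88 and Tesc by 2.55. The CD8 gain of Tesc was small (1.05 ± 0.41, adjusted p = 0.0414) and ended in 13 of the other settings. The CD8 gains of Cd40lg (1.22) and Ly6c1 (1.69) ended in the model of 29 libraries (limma adjusted p = 0.129 and 0.0578), and that of Ly6c1 also without CD8 replicates 1 and 2 (0.0747). Cd8b1 stood at 725, 661 and 711 FPKM in CD8 and 16.4 and 10.8 in CD4 libraries, against 0.0341, 0.0321 and 5.17 in LKS-SLAM (CD4 minus CD8 −5.61 ± 0.58). Higher in CD8 cells were also Gzma (−3.60), Klrc1 (−3.59), the long noncoding RNA Tmevpg1 (−3.46) and Klrd1 (−3.28), genes that natural killer cells share. Gzma stood at 245, 219 and 52.1 FPKM in CD8 replicates 1, 2 and 3, and the natural killer list was also lowest in replicate 3 of these; its part in the difference was not tested. The CD4 difference of Klrc1 was 1.18 and came under 1 without CD4 replicate 1 (0.97) and without LKS-SLAM replicate 2 (0.94). In the model of 29 libraries the CD4 calls of Klrc1, Gzma, Tmevpg1 and Cd8b1 ended (limma adjusted p = 0.277, 0.0639, 0.0831 and 0.0816).

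The T cells were then set against the other native blood cells, 3 libraries of B220+ B cells and 2 of Gr1+ Cd11b+ myeloid cells, to see how far the gains belonged to T cells. The same T cell libraries enter both comparisons, so these counts describe the gained and lost genes and are no independent test of them. Of the 1013 gained genes, 485 (47.9%) were higher in T cells than in both, where 15.7% of all genes were. A further 163 were higher than in myeloid and not called against B cells, and 138 were lower than in B cells. For these counts no share over all genes was taken. Lower than in both were 33 of the 1013 (3.26%), where 7.1% of all genes were. Tcf7, Cd3g, Cd3e, Il7r and Thy1 were among the 485. Il7r stood at 0.117, 0.690 and 0.723 FPKM in B cells and 0.0291 and 0.146 in myeloid cells, and Thy1 at 0.792 to 0.891 and 0.313 to 0.544, below the LKS-SLAM libraries. Ccr7 and Cd2 were gains of lymphocytes at large: Ccr7 stood at 447, 335 and 279 FPKM in B cells, and T cells differed by 0.41 (limma adjusted p = 0.520). Ikzf3, gained by 3.99 and 4.37, was lower in T than in B cells by 1.34.

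Of the 2751 lost genes, 279 (10.1%) were lower in T cells than in both B and myeloid cells, against 7.1% of all genes. Called against neither were 1071, a count for which no share over all genes was taken. Cd24a stood at 231, 286 and 324 FPKM in LKS-SLAM, 245, 281 and 300 in B and 184 and 194 in myeloid libraries, and at 1.17 and 2.44 in CD4 and 23.7, 19.4 and 9.53 in CD8. Spi1, which encodes PU.1, a factor of myeloid and B cells, stood at 76.4, 65.0 and 87.6 FPKM in LKS-SLAM, 98.3, 82.5 and 91.6 in B and 675 and 631 in myeloid libraries, and at 0.502 and 1.01 in CD4 and 13.7, 30.8 and 7.24 in CD8. Lyl1, Plcg2 and Napsa had the same order, with CD4 lowest and CD8 between. The stem cell genes Gata2, Muc13 and Adgrg1, in contrast, were called against neither B nor myeloid cells, with differences of −0.13 to 0.19.

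The same differences were measured in libraries that the native comparison does not use: 2 CD4, 3 CD8 and 3 LKS-SLAM libraries titled rEC, whose genotype is annotated as derived, from blood and marrow. These groups mix primary and secondary libraries by their titles. Of the 1013 gained genes, 940 (92.8%) were called higher in derived CD4 and derived CD8 than in derived LKS-SLAM cells, where 16.7% of all genes were, and 1008 had that sign in both, against 36.1% of all genes. Of the 2751 lost genes, 2338 (85.0%) were called lower, against a background of 28.7%, and 2722 had that sign, against 54.5%. Tcf7 differed by 8.80 and 8.38 there, Il7r by 7.71 and 7.50, Gata2 by −7.11 and −7.40 and Adgrg1 by −8.24 and −8.34. Of the granule genes, Mpo differed in derived cells by −3.10 and −3.24, Elane by −3.23 and −3.24 and Prg2 by −3.49 and −3.17. Mpo stood at 20.5, 60.2 and 0.109 FPKM in the derived LKS-SLAM libraries. The size of a difference between origins was not tested. Derived LKS-SLAM replicate 2 stood apart, with Gata2 at 54.0 FPKM against 274 and 361 in replicates 1 and 3. Without it and derived B cell replicate 1, 951 gained and 2435 lost genes were called the same way.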

How the data were processed

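Poly-A RNA of sorted mouse cells was sequenced as 51-base paired reads from a kit that does not keep the strand, per the labels' protocols, so antisense partners cannot be told apart. The deposited values are FPKM per gene; the authors used TopHat2 2.1.0 and Cufflinks 2.2.1 on mm10, after bcl2fastq 2.17, Trimmomatic 0.36 and FastQC 0.11.5, per the submitters' processing notes. FPKM hold no read counts, so absolute depth is unknown; relative depth was estimated from the smallest steps between low values.

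The model was a limma fit (version 3.58.1, R 4.3.3) to log2(FPKM + 1), with a mean for each of 5 native groups over 13 libraries (LKS-SLAM, CD4, CD8, B and myeloid), an intensity trend and moderated variances, for 13578 of 23060 symbols that reached 1 FPKM in 2 or more of the libraries. The same model over 29 libraries in 11 groups gave the derived comparison. The scripts were tested on simulated data. Python 3.11.15, numpy 2.4.6, pandas 2.3.3, scipy 1.17.1 and matplotlib 3.10.9 made counts, exact tests and figures. Positions are from GENCODE annotation of mm10.

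The comparison, the 33 gene lists (623 of 630 memberships in the table) and the gene pairs were chosen with earlier results of these data known. Named genes are the 15 in each direction with the largest smaller difference, no overlap between T cell and LKS-SLAM libraries and a higher group averaging 5 FPKM or more; some of these, and 2 of the pairs, are not reported here; other genes are list members, pairs, or the 5 most unlike between CD4 and CD8 in each direction. Alternatives were another pseudocount (0.1), no filter or a filter of 5 FPKM, quantile normalisation, rescaling without Gm25500, other sets of libraries, a replicate block, array quality weights and leaving out libraries.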

Additional observations from a re-analysis of the deposited data

Results flagged for a closer look

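The change from LKS-SLAM cells differed in size between CD4 and CD8 cells for 535 of the 3764 shared genes (14.2%), against 1861 (13.7%) of all 13578 genes tested, by limma's CD4 minus CD8 contrast at an adjusted p under 0.05. Of these, the largest differences in favour of CD4 cells were in Cd40lg (5.12), Izumo1r (4.07), Trat1 (3.52), Ly6c1 (2.88) and Tesc (2.55), on the log2(FPKM + 1) scale. The largest in favour of CD8 cells were in Cd8b1 (−5.61), Gzma (−3.60), Klrc1 (−3.59), Tmevpg1 (−3.46) and Klrd1 (−3.28).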

How the results depend on the processing

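All 30 named genes kept their direction and call in their 561 values, under the other settings in which they could be tested. With LKS-SLAM replicate 3 as the only stem cell library, some, Gata2 among them, did not pass the filter. The 30 had been picked for the largest differences without overlap. Quantile normalisation gave 1866 gained genes, and 1691 genes gained and called in derived cells; the cause was not tested. With LKS-SLAM replicate 3 as the only stem cell library, 1649 genes were lost and 1347 of them called in derived cells, with fewer genes tested by construction. The count of shared genes that differ between CD4 and CD8 was 88 with 29 libraries, 175 without CD8 replicates 1 and 2, a setting chosen after seeing the data, and 236 (without CD4 replicate 1) to 822 (without LKS-SLAM replicate 3) leaving out 1 library. The difference in genes at 1 FPKM was −1563.5 to −1372.5 leaving out 1 library, with exact permutation p of 0.0571 or 0.0952, the smallest those sizes allow.

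With the replicate number as a replicate block, 1020 genes were gained, 2782 lost, 8768 called in CD4, 8783 in CD8 and 507 shared genes differed between the classes. Same-numbered libraries correlated at −0.17 to 0.19 in their deviations from group means, so the numbers were not taken to pair them. Depth is unknown in FPKM, and low values of single libraries cannot be given an interval.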

Other observations

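In some large gene families, picked after their values were seen, few members were gained or lost. Of all genes tested, 7.46% were gained and 20.3% lost. Of 83 ribosomal protein genes 0 were gained and 3 lost (median −0.27 in CD4 and 0.34 in CD8 cells), and their summed level was 140328 FPKM in CD4, 208247 in CD8 and 159708 in LKS-SLAM cells. Of 36 NADH dehydrogenase subunit genes, which build respiratory complex I, 0 were gained and 2 lost (−0.40 and −0.39), and their summed level, 2664 to 2981 FPKM in T cell libraries, lay below the 3287 to 3854 of LKS-SLAM libraries. Other families held members that rose: of 11 Ms4a genes, membrane proteins encoded together, 5 were gained and 1 lost, and their summed level was 1807 FPKM in CD4, 1518 in CD8 and 112 in LKS-SLAM cells. Of 7 Schlafen genes, 3 were gained and 1 lost, with summed levels of 602, 383 and 56.1 FPKM. How reads of close copies in these families were split is not given in the sources used here.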
